A study of Mus musculus with 9 samples.

Results

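The genes described here encode the ligands, receptors, Smad proteins, Id proteins and extracellular inhibitors of TGF-beta, BMP, Nodal and activin signalling. A list of 42 such genes was taken by name, and every probe set of the array whose only gene symbol was on the list was taken, which gave 91 of 45101 probe sets and 42 of 18193 named genes. All 42 genes had a probe set, and 28 had more than 1. Levels are log2 expression values, and 4 on that scale was used as the limit below which a probe set was treated as dim. Of the 91 probe sets, 71 lay over 4 on at least 1 of the 9 arrays, 66 on at least 3, 36 on all 9 and 20 on none. By group, 56 probe sets lay over 4 on all 3 Cdx2 and FGF arrays, 50 on all 3 motor neuron arrays and 49 on all 3 ES cell arrays. A total of 39 genes had a probe set over 4 somewhere. The rule used gene names and no measured value, but the list was chosen with earlier results of these data known. Shares set beside those of all genes are therefore descriptive.

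TGF-beta family ligands are secreted dimers that bring together type I and type II receptor kinases on the surface of a cell. TGF-beta, activin and Nodal receptors phosphorylate Smad2 and Smad3, BMP receptors phosphorylate Smad1, Smad5 and Smad9, and both sets enter the nucleus with Smad4. Nodal and activin signalling is known from pluripotent cells and the early embryo. BMPs pattern the dorsal neural tube, opposite to the ventral hedgehog signal under which motor neurons form.

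Gene expression was measured on 9 Affymetrix mouse arrays, 3 in each of 3 groups, all from the Ainv15 mouse embryonic stem (ES) cell line with a doxycycline-inducible, V5-tagged Cdx2 construct. Cdx2 and FGF cultures were embryoid bodies at day 5 that had received all-trans retinoic acid (1 µM) and a hedgehog agonist (0.5 µM) from day 2, doxycycline (2 µg/ml) on day 3, kept on for 6 to 8 hours, and bFGF (100 ng/ml). Motor neuron cultures were day 5 embryoid bodies with the same retinoic acid and hedgehog agonist, without doxycycline or FGF. ES cells were taken untreated at day 0 and had been kept on mitomycin-C-treated fibroblasts. The growth protocol also mentions retinoic acid and hedgehog agonist at 100 nM each beside FGF, without saying in which cultures. Doxycycline, Cdx2 and FGF came together, so their effects cannot be told apart. The inducible construct was present in all 3 groups.

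Differences were tested with limma over 10911 genes that lay over 4 on at least 3 arrays, with 1 probe set a gene, the one with the highest mean. A call required an adjusted p under 0.05 together with a log2 difference of 1 or more in size. Of the 42 genes, 34 were tested. The 8 that were not were Inhba, Tgfb1, Tgfb3, Bmpr1b, Smad9, Nog, Chrd and Grem1. Bmp6 and Smad6 passed through the Cdx2 and FGF arrays alone, and Gdf3, Nodal, Lefty1, Lefty2, Tdgf1 and Inhbb through the ES cell arrays alone, so those genes had to differ and their calls say little by their number. Tgfbr2 was over 4 on 3 Cdx2 and FGF arrays, 0 motor neuron arrays and 1 ES cell array. It passed only with the Cdx2 and FGF arrays, so its calls there say little too. The 3 comparisons share arrays. The labels name no separate origin for the 3 arrays of a group. The p-values therefore measure array-to-array spread only, which may be technical, and the small number of arrays limits the precision. In such bulk samples fewer cells of a type and less RNA per cell cannot be told apart.

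The induced gene Cdx2 read 8.27, 8.99 and 8.59 in Cdx2 and FGF cultures, against 2.17, 2.17 and 2.24 in motor neuron cultures and 2.17 on each ES cell array. All 8 ES cell markers were over 4 on every ES cell array, and 2 of them on every array of each day 5 group. Of the 7 motor neuron markers with a probe set, 6 were over 4 on every motor neuron array. The count was 5 on every Cdx2 and FGF array and 3 on every ES cell array. Chat, the enzyme that makes acetylcholine, was under 4 on every array of all groups. The arrays of a group correlated at 0.998 in Cdx2 and FGF cultures, 0.995 to 0.997 in motor neuron cultures and 0.963 to 0.974 in ES cells. The ES cell arrays also stood apart in the array's own control probe sets. The level of the 3′ minus the 5′ probe set of Actb was -0.10 to -0.01 in Cdx2 and FGF cultures, -0.05 to -0.03 in motor neuron cultures and 1.87 to 2.30 in ES cells. For Tfrc it was -1.74 to -1.43 in Cdx2 and FGF cultures, -1.57 to -1.39 in motor neuron cultures and 5.59 to 6.86 in ES cells. For Gapdh the groups were close, at 0.51 to 0.54 in Cdx2 and FGF cultures, 0.59 to 0.65 in motor neuron cultures and 0.63 to 1.05 in ES cells. The 18S ribosomal RNA control read 15.3 to 15.4 in Cdx2 and FGF cultures, 15.5 on the motor neuron arrays and 5.86 to 6.60 in ES cells. Every comparison with ES cells below carries this difference between groups, and its part in them was not tested.

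Between motor neuron cultures and ES cells, the Nodal and activin genes Gdf3, Nodal, Lefty1, Lefty2, Tdgf1 and Inhbb, the ligands Bmp4 and Tgfb2, Smad7, Id2, Fst, Bambi and Ltbp1 were lower in motor neuron cultures, and Bmp7, Bmp1, Smad5, Acvr2b, Tgfbr1, Id1, Id3 and Id4 were higher. Of the 34 tested genes, 8 were called higher (23.5%) and 13 lower (38.2%), beside 25.9% and 30.7% of all 10911 genes. The median difference was -0.81 over the 34 genes and -0.08 over all genes. The share called higher lay near that of all genes. The share called lower was above it, with 6 of the 13 genes being those that could only be lower.

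Between Cdx2 and FGF cultures and motor neuron cultures, 11 of the 34 genes were higher in Cdx2 and FGF cultures (32.4%) and 2 lower (5.88%), beside 11.2% and 8.61% of all genes. The genes called higher were Bmp4, Bmp6, Tgfb2, the receptor genes Acvr1, Tgfbr2 and Tgfbr3, Smad6, Id2, Fst, Bambi and Ltbp1. Of these, Bmp6, Smad6 and Tgfbr2 could only be higher. The genes called lower were Acvr1b and Id4. The median difference was 0.21 over the 34 genes and 0.04 over all genes. Taking each of the genes' 66 tested probe sets by itself, 18 were higher and 4 lower, beside 10.9% and 8.57% of all 21523 probe sets tested. Of the 20 genes with several tested probe sets, 1 had probe sets that differed in their call (Bmp7) and 0 had opposite calls.

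Set against ES cells, the Cdx2 and FGF cultures had calls in both directions, and 11 of the 34 genes were higher (32.4%) and 11 lower (32.4%), beside 25.4% and 27.2% of all genes. The median difference was 0.31 over the 34 genes and -0.0038 over all genes. The genes called higher were Bmp1, Bmp6, Bmp7, Tgfb2, Acvr2b, Tgfbr2, Smad2, Smad5, Smad6, Id1 and Id3. Those called lower were Bmp4, Gdf3, Nodal, Lefty1, Lefty2, Tdgf1, Inhbb, Acvr1b, Smad7, Fst and Ltbp1. Of these genes, Bmp6 and Smad6 could only be higher, and Gdf3, Nodal, Lefty1, Lefty2, Tdgf1 and Inhbb only lower. Tgfbr2 passed only with the Cdx2 and FGF arrays. With each array centred on its own median, which raised every difference from ES cells by 0.43 in Cdx2 and FGF cultures and by 0.42 in motor neuron cultures, the split was 15 higher and 9 lower. The shares of all genes move with that centring too and were not counted, so this split has no background beside it. The heatmap shows all 42 genes by array.

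**Figure D1:**
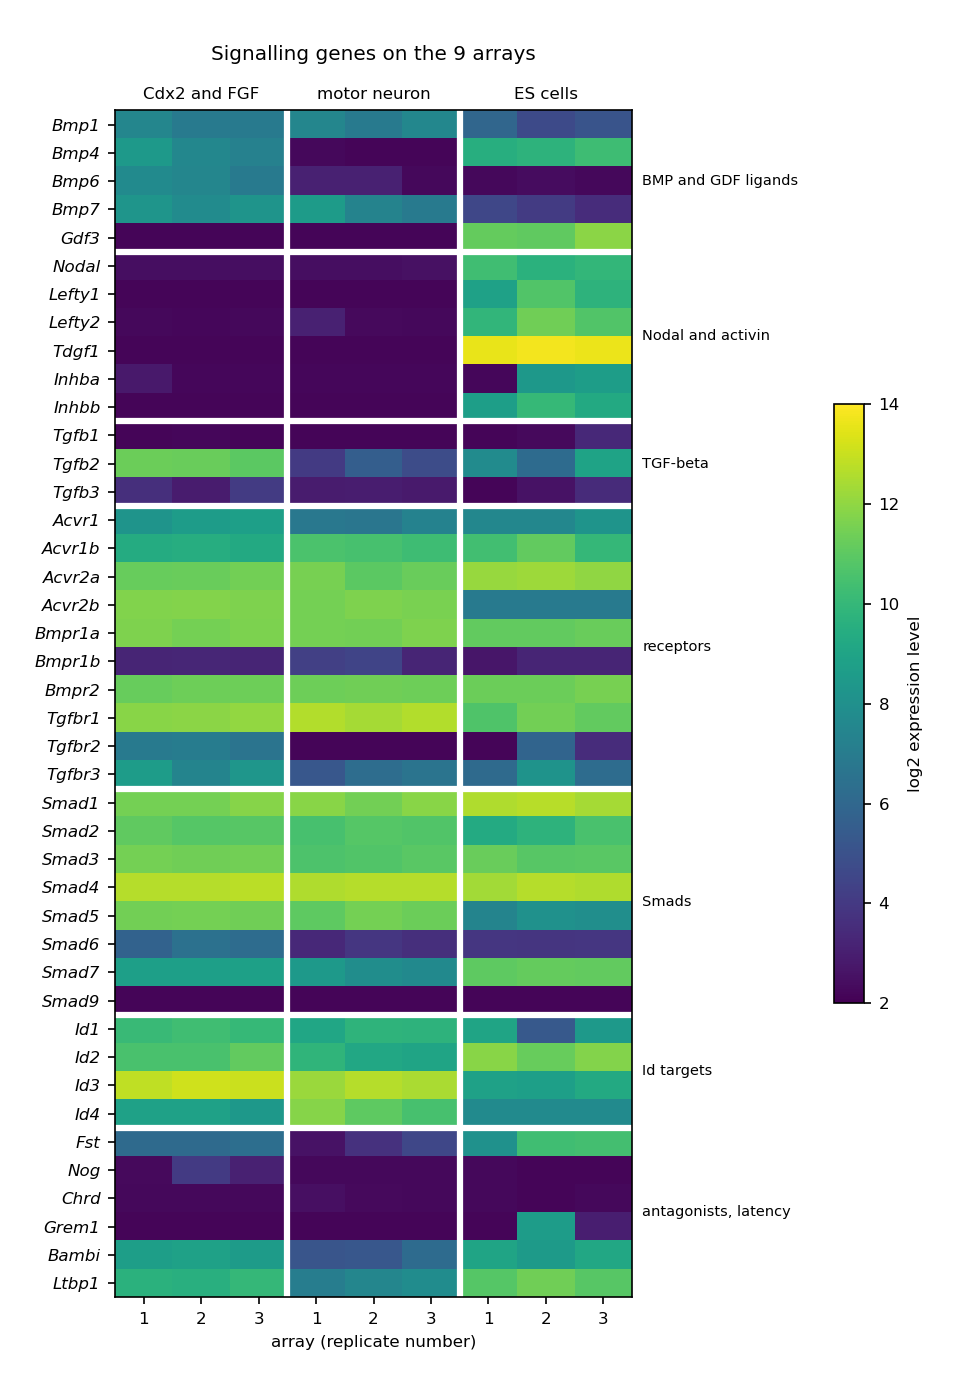
Log2 level of the chosen probe set of each of the 42 genes (rows, grouped by role) on the 9 arrays (columns: 3 Cdx2 and FGF, 3 motor neuron, 3 ES cell). Gdf3, Nodal, Lefty1, Lefty2, Tdgf1 and Inhbb lie over 4 only on ES cell arrays, while Smad4, Bmpr1a and Bmpr2 are bright on all 9.

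The Nodal and activin genes other than Inhba were bright on the ES cell arrays and dim on all day 5 arrays. Tdgf1 encodes Cripto, the co-receptor that Nodal needs to signal. It read 2.17 on every Cdx2 and FGF array and every motor neuron array, against 13.60, 13.81 and 13.67 on the ES cell arrays. The groups lay far apart, and Tdgf1 was at least 828-fold lower in motor neuron cultures than in ES cells (log2 difference -11.53 ± 0.20 SE, limma adjusted p 5.27e-10). Where the arrays of the dimmer group lay under 4, folds are lower bounds computed with values under 4 raised to 4. Nodal, the ligand itself, read 2.44 on each Cdx2 and FGF array, 2.44, 2.44 and 2.55 on motor neuron arrays and 10.33, 9.65 and 9.94 on the ES cell arrays. No day 5 array reached 4. Nodal was at least 62.8-fold lower in motor neuron cultures than in ES cells (-7.50 ± 0.23, adjusted p 6.46e-09). Its other probe set was dimmer, at 7.10, 4.75 and 5.73 on the ES cell arrays and 2.17 on all day 5 arrays, at least 3.6-fold apart. Gdf3, a ligand of the family made by pluripotent cells, read 2.17 on all 6 day 5 arrays and 11.18, 11.05 and 11.90 on the ES cell arrays. Its fall in motor neuron cultures was at least 166-fold (adjusted p 3.98e-09).

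Lefty1 and Lefty2 encode secreted inhibitors of Nodal. Lefty1 was 2.17 on all 6 day 5 arrays and 8.85, 10.72 and 9.78 on the ES cell arrays, a fall of at least 55.1-fold in motor neuron cultures (-7.62 ± 0.40, adjusted p 1.53e-07). Lefty2 was 2.28, 2.19 and 2.28 on the Cdx2 and FGF arrays, 3.09, 2.30 and 2.26 on motor neuron arrays and 9.91, 11.38 and 10.75 on the ES cell arrays, a fall of at least 103-fold in motor neuron cultures (adjusted p 7.66e-08). The genes are close in sequence, and how far their probe sets share signal was not tested. Inhbb, the beta B subunit of activin and inhibin, was 2.17 on all 6 day 5 arrays and 8.74, 10.02 and 9.28 on the ES cell arrays, a fall of at least 40.8-fold in motor neuron cultures (adjusted p 4.01e-08). These values are of its brightest probe set, and its other probe set read 2.17 to 2.19 on all 9 arrays, ES cells included. None of these 6 genes was called between Cdx2 and FGF cultures and motor neuron cultures, where all 6 arrays were under 4 for each. Inhba, the beta A subunit, was not tested. It read 2.81, 2.23 and 2.23 on the Cdx2 and FGF arrays, 2.23 on each motor neuron array and 2.23, 8.40 and 8.67 on the ES cell arrays, so the ES cell arrays did not agree among themselves. Of the 8 fibroblast markers, Col1a2 and Col3a1 were low on the same ES cell array as Inhba, at 3.81, 9.79 and 10.17 and 2.46, 8.47 and 7.41. Other markers were not, with Col1a1 at 10.15, 10.45 and 12.68, Thy1 at 5.96, 6.92 and 8.16 and Dcn, highest on replicate 1, at 6.85, 2.17 and 4.41. Pdgfrb was 4.33, 5.63 and 3.85, Postn was 2.17, 4.05 and 2.19 and Lum was under 4 on all 3. The part of the fibroblast layer in the Inhba values, and in the ES cell levels of any other gene here, was not tested. Over the 8 fibroblast markers, the log2 of the summed level was 9.30 to 9.62 in Cdx2 and FGF cultures with 4 of 8 over 4 on all arrays, 5.60 to 5.65 in motor neuron cultures with 0 of 8, and 10.4 to 13.0 in ES cells with 2 of 8. Thy1, Dcn, Lum and Postn were under 4 on every Cdx2 and FGF array.

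The 250 bases before the start of Tdgf1 and Nodal are shown because these were the ligand and co-receptor that were dim at day 5, and those of Bmp4 and Tgfb2 because these ligands were low in motor neuron cultures and higher in the other groups. The sequences are RefSeq's, of build GRCm38.p6, read 5′ to 3′ on the gene's strand. The table held 28 of the 42 genes. Capitals mark matches on either strand to CAGAC (a Smad binding half-site), GGCGCC (a GC-rich Smad element), AATNNACA (FoxH1, the partner of Smad2 in Nodal responses) and TTTAT (Cdx proteins).
Tdgf1, chr9:110946159-110946408, minus strand: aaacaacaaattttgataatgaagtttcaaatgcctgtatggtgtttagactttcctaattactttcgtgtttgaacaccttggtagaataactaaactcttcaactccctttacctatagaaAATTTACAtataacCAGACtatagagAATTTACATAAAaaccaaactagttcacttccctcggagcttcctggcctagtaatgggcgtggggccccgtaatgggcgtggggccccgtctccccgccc
Nodal, chr10:61417722-61417971, plus strand: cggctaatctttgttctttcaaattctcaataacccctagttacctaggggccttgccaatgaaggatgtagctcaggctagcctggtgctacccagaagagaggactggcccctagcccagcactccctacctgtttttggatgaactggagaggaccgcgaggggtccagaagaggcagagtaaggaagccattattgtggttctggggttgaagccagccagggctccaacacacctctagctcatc
Bmp4, chr14:46390670-46390919, minus strand: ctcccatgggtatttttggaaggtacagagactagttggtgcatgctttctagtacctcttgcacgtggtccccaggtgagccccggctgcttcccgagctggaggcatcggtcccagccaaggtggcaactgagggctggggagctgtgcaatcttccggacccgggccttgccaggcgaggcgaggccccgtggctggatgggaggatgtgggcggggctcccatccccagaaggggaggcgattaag
Tgfb2, chr1:186705990-186706239, minus strand: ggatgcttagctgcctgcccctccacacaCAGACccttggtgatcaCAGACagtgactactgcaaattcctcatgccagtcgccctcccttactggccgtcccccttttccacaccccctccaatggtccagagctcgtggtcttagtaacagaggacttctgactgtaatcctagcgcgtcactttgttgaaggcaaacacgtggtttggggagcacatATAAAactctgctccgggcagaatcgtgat

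The Tdgf1 window held 2 matches to AATNNACA, 1 to CAGAC and 1 to TTTAT, and the last shared a base with an AATNNACA match. The Tgfb2 window held 2 matches to CAGAC and 1 to TTTAT. The windows of Nodal and Bmp4 held 0 matches to any of the 4 motifs, which says only that these letters are not in these 250 bases. Over 27025 promoters of the table, windows with a match made up 42.1% for CAGAC, 9.54% for GGCGCC, 11.1% for AATNNACA and 38.1% for TTTAT. Among the 28 genes, 10 windows held CAGAC, 8 GGCGCC, 1 AATNNACA and 6 TTTAT. These matches describe sequence and do not show binding.

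Bmp4, the ligand of the BMP branch with a known role in dorsal neural and mesodermal patterning, was 8.43, 7.57 and 7.29 in Cdx2 and FGF cultures, 2.27, 2.17 and 2.17 in the motor neuron cultures and 9.52, 9.75 and 10.28 in ES cells. The 3 groups did not overlap, with the motor neuron arrays at the bottom of the scale and the Cdx2 and FGF arrays between the others. Bmp4 was at least 13.6-fold higher in Cdx2 and FGF cultures than in motor neuron cultures (5.56 ± 0.33, adjusted p 2.39e-06). It was at least 57.7-fold lower in motor neuron cultures than in ES cells (adjusted p 4.66e-08). It was 4.25-fold lower in Cdx2 and FGF cultures than in ES cells (-2.09 ± 0.33, adjusted p 0.000349). Bmp6, another BMP ligand, was 7.76, 7.50 and 6.91 in Cdx2 and FGF cultures, 3.08, 3.08 and 2.24 in the motor neuron cultures and 2.24, 2.39 and 2.24 in ES cells. Only the Cdx2 and FGF arrays were over 4, at least 10.5-fold above motor neuron cultures (4.59 ± 0.31, adjusted p 5.02e-06).

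Bmp7, a BMP ligand, was 8.25, 7.78 and 8.20 in Cdx2 and FGF cultures, 8.60, 7.38 and 6.93 in the motor neuron cultures and 4.55, 4.11 and 3.50 in ES cells. Both day 5 groups lay above all ES cell arrays and overlapped each other. The difference of motor neuron cultures from ES cells was at least 10.7-fold (3.59 ± 0.44, adjusted p 5.1e-05), with 1 ES cell array under 4, while its other tested probe sets gave 0.09 with no call and 1.84 with a call. Between Cdx2 and FGF cultures and motor neuron cultures it was not called (0.44 ± 0.44, adjusted p 0.519), while its other tested probe sets gave 1.52 with no call and 1.67 with a call. Bmp1 is a secreted metalloprotease rather than a BMP ligand, and cleaves procollagen and chordin. It was 7.49, 6.91 and 6.96 in Cdx2 and FGF cultures, 7.50, 6.91 and 7.56 in the motor neuron cultures and 5.96, 4.69 and 5.13 in ES cells. It was 4.17-fold higher in motor neuron cultures than in ES cells (adjusted p 0.000579) and not called between the day 5 groups (adjusted p 0.741).

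Tgfb2, a TGF-beta ligand, was 11.29, 11.25 and 10.99 in Cdx2 and FGF cultures, 4.04, 5.61 and 4.81 in the motor neuron cultures and 7.80, 6.18 and 8.98 in ES cells. The Cdx2 and FGF arrays were the highest and the motor neuron arrays the lowest, without overlap. Tgfb2 was 82.0-fold higher in Cdx2 and FGF cultures than in motor neuron cultures (6.36 ± 0.64, adjusted p 6.83e-05), and all 4 of its probe sets were called, with differences of 5.81 to 6.36. It was 11.5-fold higher in Cdx2 and FGF cultures than in ES cells (3.52 ± 0.64, adjusted p 0.000795), with a difference of 2.78 without ES cell replicate 2 and 4.18 without replicate 3. It was 7.15-fold lower in motor neuron cultures than in ES cells (-2.84 ± 0.64, adjusted p 0.00274), with -3.58 without ES cell replicate 2 and -2.18 without replicate 3. Of its 4 probe sets, 2 were called lower there. Tgfb1 and Tgfb3, the other TGF-beta ligands, were not tested. The mean level of Tgfb1 was 2.19 in Cdx2 and FGF cultures, 2.17 in motor neuron cultures and 2.61 in ES cells, and that of Tgfb3 was 3.54 in Cdx2 and FGF cultures, 2.92 in motor neuron cultures and 2.75 in ES cells. The plot of levels by array shows 16 of the genes with every array.

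**Figure D2:**
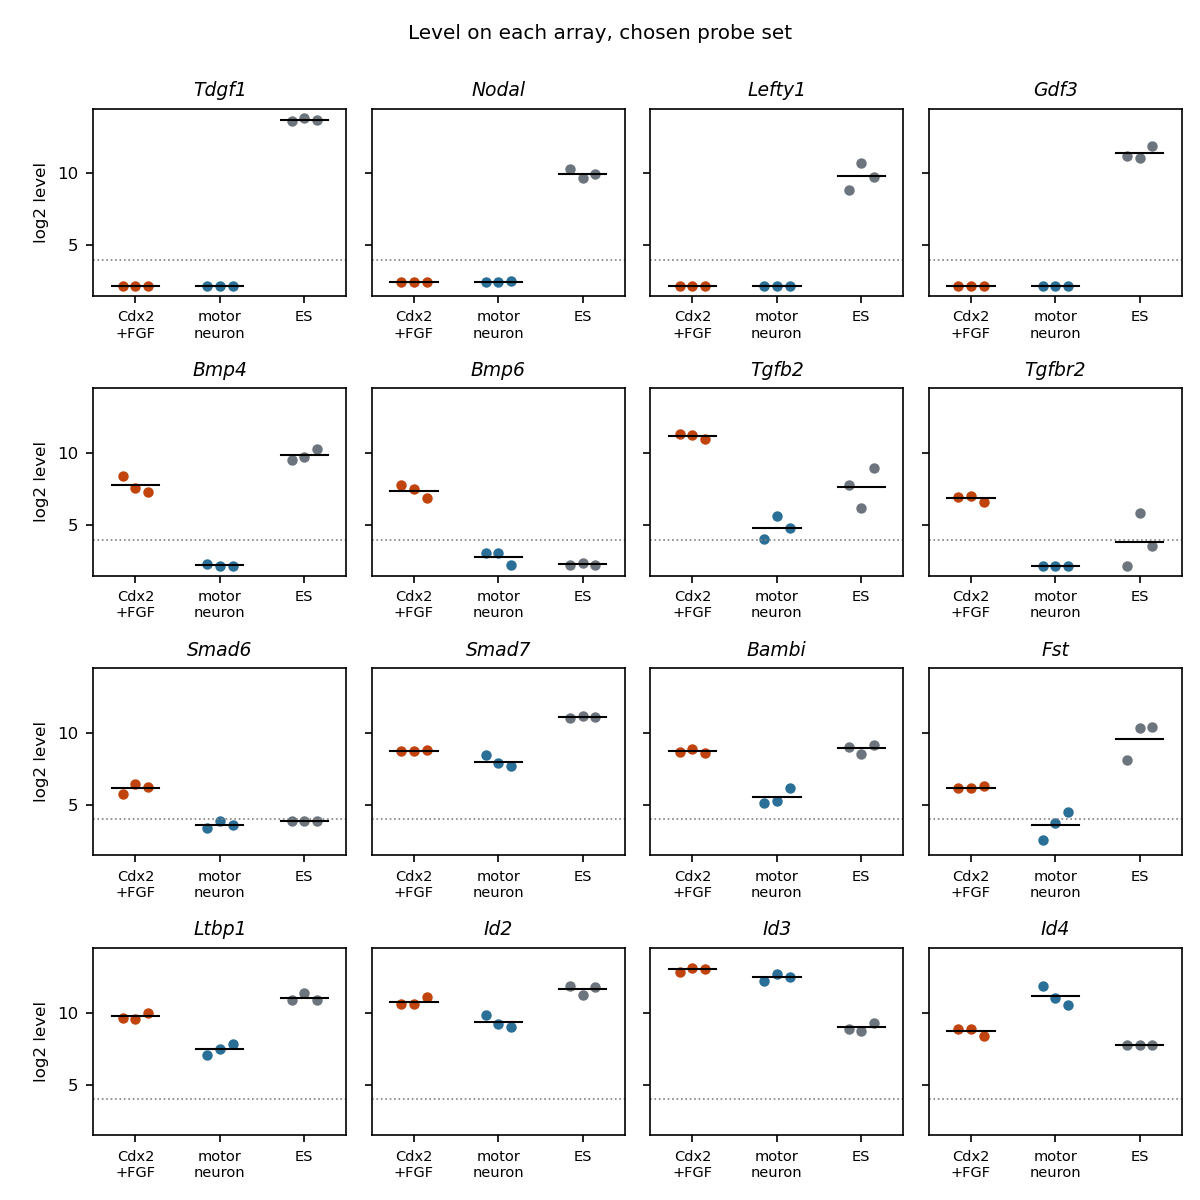
Log2 level (vertical axis) of 16 genes on each array, with Cdx2 and FGF cultures, motor neuron cultures and ES cells from left to right; points are arrays, lines the mean of 3, and the dotted line marks 4. The motor neuron arrays are the lowest group for Bmp4, Tgfb2 and Bambi, and the highest for Id4.

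Markers of neurons and of other cell types also differed between the day 5 groups. The log2 of the summed level of the 6 smooth muscle markers was 14.7 to 14.8 in Cdx2 and FGF cultures and 5.19 to 8.55 in motor neuron cultures, with 4 of 6 over 4 on all Cdx2 and FGF arrays and Myh11 and Actg2 under 4. That of the 8 mesoderm markers was 11.6 to 11.9 in Cdx2 and FGF cultures and 7.33 to 7.93 in motor neuron cultures, with 5 of 8 over 4 on all Cdx2 and FGF arrays and Tbx6, Msgn1 and Hand1 under 4. Among tested markers, 4 of 4 smooth muscle, 4 of 5 mesoderm and 4 of 5 fibroblast genes were called higher in Cdx2 and FGF cultures, beside 11.2% of all genes. Meox1 and Foxc1 were over 4 on the Cdx2 and FGF arrays alone. Cnn1, Foxc2, Col1a2, Col3a1 and Pdgfrb were under 4 on every motor neuron array and passed only with the Cdx2 and FGF arrays. These markers could only be higher. Untested dim markers such as Tbx6 and Myh11 are outside the counts, so these shares say little by their number. The 8 pan-neuronal markers were all called lower in Cdx2 and FGF cultures, beside 8.61% of all genes, at 12.9 to 13.1 in Cdx2 and FGF cultures and 16.2 to 16.6 in motor neuron cultures, as were 5 of 6 tested motor neuron markers, at 12.0 to 12.1 in Cdx2 and FGF cultures and 14.2 to 14.6 in motor neuron cultures. None of the 8 roof plate markers or 6 endothelial and blood markers was over 4 on all arrays of a day 5 group, with 0 in each. Sums of the 6 neural crest markers were 12.5 to 12.9 in Cdx2 and FGF cultures and 12.2 to 12.3 in motor neuron cultures, with Sox10, Foxd3 and Tfap2a under 4. Sums of the 6 endoderm markers were 11.1 to 11.5 in Cdx2 and FGF cultures and 9.05 to 9.89 in motor neuron cultures, with Sox17, Gata4 and Afp under 4. The brightest was Foxa2, called higher in Cdx2 and FGF cultures, with a mean of 11.30 against 9.34 in motor neuron cultures. Gata6 went the other way, under 4 on every Cdx2 and FGF array and called lower there (-1.44, limma adjusted p 0.00129). Of the 3 tested, 1 was called higher and 1 lower. The part of a change in cell types in the differences of Bmp4, Bmp6, Tgfb2 and the other genes called between the day 5 groups was not tested.

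Among the 9 tested receptor genes, 2 were called higher in motor neuron cultures than in ES cells (22.2%) and 0 lower, beside 25.9% and 30.7% of all genes. The count depended on the probe set, since averaging a gene's probe sets also called Acvr1, Acvr2a and Bmpr2 higher, at 1.11, 1.82 and 1.39. Tgfbr2, the type II receptor for TGF-beta, was 6.96, 7.05 and 6.61 in Cdx2 and FGF cultures, 2.17 on each motor neuron array and 2.17, 5.86 and 3.54 in ES cells. It was over 4 on all Cdx2 and FGF arrays and on no motor neuron array, at least 7.33-fold apart (4.71 ± 0.74, adjusted p 0.00109). These values are of its brightest probe set, and its other probe sets read 2.17 on all 9 arrays. Its difference of motor neuron cultures from ES cells was -1.69 ± 0.74 with adjusted p 0.0624, and was called without ES cell replicate 1 (-2.54, adjusted p 0.004). Its difference of Cdx2 and FGF cultures from ES cells was called at 3.02 ± 0.74 (adjusted p 0.00467), with 2.17 without ES cell replicate 1 and 4.02 without replicate 2. Tgfbr3, the co-receptor betaglycan, was 8.65, 7.43 and 8.29 in Cdx2 and FGF cultures, 5.26, 6.29 and 6.62 in the motor neuron cultures and 6.15, 8.15 and 6.24 in ES cells. The day 5 groups did not overlap, and Tgfbr3 was 4.19-fold higher in Cdx2 and FGF cultures (2.07 ± 0.59, adjusted p 0.0246). That call was lost with no filter on low values, and without Cdx2 and FGF replicate 1 or 3 or motor neuron replicate 1 or 2, with adjusted p up to 0.104.

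Acvr1, a type I receptor of BMPs, was 8.21, 8.65 and 8.80 in Cdx2 and FGF cultures and 6.81, 6.70 and 7.31 in motor neuron cultures, without overlap. It was 3.06-fold higher in Cdx2 and FGF cultures (1.61 ± 0.28, adjusted p 0.00219), and its other tested probe set gave 1.37 and was called too. Acvr1b, a type I receptor of activin and Nodal, was 9.37, 9.49 and 9.29 in Cdx2 and FGF cultures, 10.58, 10.52 and 10.29 in the motor neuron cultures and 10.35, 11.14 and 9.97 in ES cells. It was 2.11-fold lower in Cdx2 and FGF cultures than in motor neuron cultures (-1.08 ± 0.27, adjusted p 0.0127), and without motor neuron replicate 1 the adjusted p was 0.0532. It was also lower in Cdx2 and FGF cultures than in ES cells (-1.10 ± 0.27, adjusted p 0.00437), a call lost without ES cell replicate 2 (-0.77). Averaging its probe sets ended both calls, at -0.61 and -0.54. Tgfbr1, the type I receptor for TGF-beta, was 11.89, 11.93 and 12.06 in Cdx2 and FGF cultures, 12.60, 12.37 and 12.60 in the motor neuron cultures and 10.71, 11.45 and 11.13 in ES cells. It was 2.69-fold higher in motor neuron cultures than in ES cells (1.43 ± 0.17, adjusted p 5.03e-05), and its other tested probe sets gave larger differences of 8.11 and 5.50.

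Acvr2b, a type II receptor of activin and Nodal, was 11.72, 11.78 and 11.69 in Cdx2 and FGF cultures, 11.48, 11.69 and 11.60 in motor neuron cultures and 6.97 on each ES cell array. The 3 ES cell arrays held the same value to within 1e-06, the lowest of this probe set, so their spread was not measured. Taken against that value as a lower bound, Acvr2b was at least 24.6-fold higher in motor neuron cultures than in ES cells (adjusted p 3.71e-09). Its other probe sets gave log2 differences of 4.45 and 7.84, with the ES cell mean at 5.81 and 2.49. Acvr2a, the related type II receptor, Bmpr1a, a type I receptor of BMPs, and Bmpr2, their type II receptor, were over 4 on all 9 arrays and were not called in any comparison on their brightest probe set. The mean level of Bmpr2 was 11.30 ± 0.09 in Cdx2 and FGF cultures, 11.37 ± 0.01 in motor neuron cultures and 11.39 ± 0.12 in ES cells (SD, n = 3 each). The mean level of Bmpr1a was 11.61 ± 0.09 in Cdx2 and FGF cultures, 11.54 ± 0.12 in motor neuron cultures and 11.17 ± 0.08 in ES cells. Bmpr1b, the other type I receptor of BMPs, was not tested and averaged 3.27 in Cdx2 and FGF cultures, 3.99 in motor neuron cultures and 3.07 in ES cells.

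The genes of the signal-carrying Smad proteins Smad1 to Smad5 were over 4 on all 9 arrays. Smad4, the common partner, averaged 12.71 ± 0.06 in Cdx2 and FGF cultures, 12.63 ± 0.04 in motor neuron cultures and 12.52 ± 0.18 in ES cells. Smad1, of the BMP branch, averaged 11.61 ± 0.17 in Cdx2 and FGF cultures, 11.71 ± 0.25 in motor neuron cultures and 12.57 ± 0.16 in ES cells. Neither was called in any comparison on its brightest probe set, nor was Smad3, of the TGF-beta and activin branch, at 11.45 ± 0.06 in Cdx2 and FGF cultures, 10.78 ± 0.15 in motor neuron cultures and 11.03 ± 0.20 in ES cells. Other probe sets were called against ES cells. For Smad4, 1 of the others was higher by 3.28 in motor neuron cultures and by 3.62 in Cdx2 and FGF cultures, and the average of its probe sets was called at 1.32 (adjusted p 1.42e-06) and 1.53 (adjusted p 6.95e-07). For Smad1, 1 of the others was higher by 2.99 in motor neuron cultures and by 3.32 in Cdx2 and FGF cultures. Smad2, of the branch of Smad3, was called in Cdx2 and FGF cultures against ES cells alone (1.06 ± 0.27, adjusted p 0.0064). That call was lost without Cdx2 and FGF replicate 1 and without ES cell replicate 1 or 2, the difference falling as low as 0.78. It was also lost with probe sets averaged (0.76). Smad5, of the BMP branch, was 11.44, 11.49 and 11.42 in Cdx2 and FGF cultures, 11.02, 11.47 and 11.32 in the motor neuron cultures and 7.41, 8.05 and 7.94 in ES cells. It was 11.1-fold higher in motor neuron cultures than in ES cells (3.47 ± 0.20, adjusted p 2.55e-07), with all 3 of its probe sets called higher. Smad9, the remaining Smad of the BMP branch, was at 2.17 in all groups.

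The inhibitory Smads are induced by the signal and block it. Smad6, which acts mainly on the BMP branch, was 5.75, 6.46 and 6.22 in Cdx2 and FGF cultures, 3.36, 3.88 and 3.63 in the motor neuron cultures and 3.88, 3.84 and 3.88 in ES cells. The Cdx2 and FGF arrays alone were over 4, at least 4.42-fold above motor neuron cultures (2.52 ± 0.25, adjusted p 6.39e-05). Smad7, which acts on both branches, was 8.75, 8.75 and 8.81 in Cdx2 and FGF cultures, 8.45, 7.89 and 7.67 in the motor neuron cultures and 11.02, 11.18 and 11.10 in ES cells. It was 8.53-fold lower in motor neuron cultures than in ES cells (-3.09 ± 0.21, adjusted p 8.44e-07). Between the day 5 groups its difference was 0.77 ± 0.21 with adjusted p 0.0206, under the minimum difference.

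Id1 to Id4 encode helix-loop-helix proteins without a DNA-binding region, known as direct BMP targets. Id3 was 12.85, 13.11 and 13.04 in Cdx2 and FGF cultures, 12.22, 12.68 and 12.49 in the motor neuron cultures and 8.89, 8.75 and 9.28 in ES cells. Both day 5 groups lay above the ES cell arrays, and Id3 was 11.2-fold higher in motor neuron cultures than in ES cells (3.49 ± 0.17, adjusted p 9.42e-08). Id1 was 10.12, 10.34 and 10.02 in Cdx2 and FGF cultures, 9.11, 9.79 and 9.77 in the motor neuron cultures and 9.01, 5.34 and 8.49 in ES cells, where replicate 2 stood well below the others. Its call in motor neuron cultures against ES cells (1.94 ± 0.79, adjusted p 0.0473) was lost without that array, where the difference was 0.81, and in 13 other settings, with adjusted p up to 0.138. Against ES cells, Cdx2 and FGF cultures differed in Id1 by 2.54 ± 0.79 (adjusted p 0.0157), by 1.41 without ES cell replicate 2 and by 3.24 without replicate 1. Without replicate 1, motor neuron cultures differed from ES cells by 2.64.

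Id4 ran the other way between the day 5 groups. It was 8.86, 8.86 and 8.40 in Cdx2 and FGF cultures, 11.83, 11.04 and 10.53 in the motor neuron cultures and 7.75, 7.73 and 7.74 in ES cells, so the motor neuron arrays were the highest. Id4 was 5.38-fold lower in Cdx2 and FGF cultures than in motor neuron cultures (-2.43 ± 0.31, adjusted p 0.000288), and its 3 probe sets gave -2.43, -3.97 and -5.31, all called. Against ES cells its probe sets did not agree, with 3.39, 0.56 and -1.35 in motor neuron cultures. Id2 was 10.58, 10.58 and 11.10 in Cdx2 and FGF cultures, 9.86, 9.21 and 8.99 in the motor neuron cultures and 11.86, 11.20 and 11.78 in ES cells. It was 2.64-fold higher in Cdx2 and FGF cultures than in motor neuron cultures (1.40 ± 0.27, adjusted p 0.00369) and 4.79-fold lower in motor neuron cultures than in ES cells (adjusted p 4.35e-05). Against ES cells the other tested probe set gave -0.33 in motor neuron cultures with no call, and averaging the probe sets ended the call (-0.86).

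**Figure D3:**
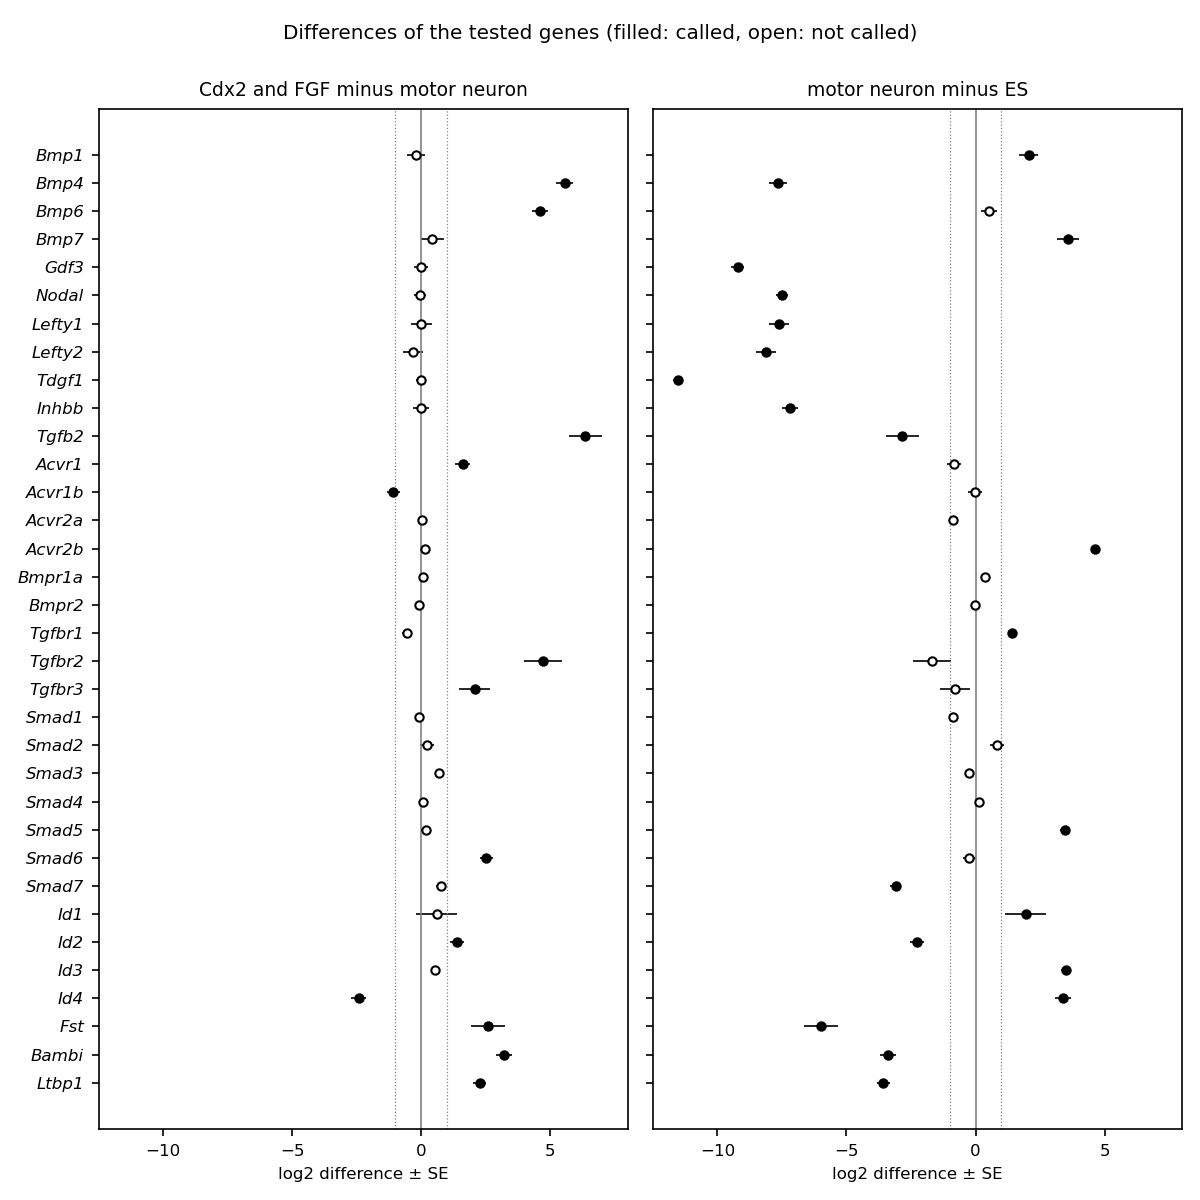
Log2 difference with its SE (horizontal axis) of each of the 34 tested genes (vertical axis, by role) between Cdx2 and FGF cultures and motor neuron cultures (left) and between motor neuron cultures and ES cells (right), with called genes filled and dotted lines at -1 and 1. Tgfb2 and Bmp4 have the largest positive differences between Cdx2 and FGF cultures and motor neuron cultures, at 6.36 and 5.56, and Id4 the largest negative one, at -2.43.

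The 3 tested genes among the inhibitors and latency proteins were Bambi, Ltbp1 and Fst. All 3 were called higher in Cdx2 and FGF cultures than in motor neuron cultures, beside 11.2% of all genes, and all 3 lower in motor neuron cultures than in ES cells, beside 30.7%, in comparisons that share the motor neuron arrays. Bambi, a receptor-like protein without a kinase that blocks type I receptors, was 8.70, 8.87 and 8.60 in Cdx2 and FGF cultures, 5.15, 5.26 and 6.18 in the motor neuron cultures and 9.02, 8.54 and 9.19 in ES cells. It was 9.17-fold higher in Cdx2 and FGF cultures than in motor neuron cultures (3.20 ± 0.31, adjusted p 5.7e-05) and 10.5-fold lower in motor neuron cultures than in ES cells (adjusted p 6.88e-06). The Cdx2 and FGF arrays overlapped the ES cell arrays. Ltbp1, which holds latent TGF-beta in the extracellular matrix, was 9.65, 9.57 and 10.00 in Cdx2 and FGF cultures, 7.07, 7.49 and 7.84 in the motor neuron cultures and 10.86, 11.38 and 10.89 in ES cells. The groups did not overlap, and Ltbp1 was 4.83-fold higher in Cdx2 and FGF cultures than in motor neuron cultures (2.27 ± 0.25, adjusted p 0.00011). It was 11.9-fold lower in motor neuron cultures than in ES cells (adjusted p 9.34e-07) and 2.47-fold lower in Cdx2 and FGF cultures than in ES cells (adjusted p 0.00102). Averaging its probe sets ended the calls of Cdx2 and FGF cultures against motor neuron cultures (0.76) and against ES cells (-0.51).

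Fst encodes follistatin, which binds and blocks activin. It was 6.14, 6.14 and 6.34 in Cdx2 and FGF cultures, 2.59, 3.72 and 4.53 in the motor neuron cultures and 8.08, 10.30 and 10.40 in ES cells, with 2 motor neuron arrays under 4. It was at least 4.07-fold higher in Cdx2 and FGF cultures than in motor neuron cultures (2.59 ± 0.65, adjusted p 0.014), and without motor neuron replicate 1 the difference was 2.08 with adjusted p 0.0621. It was at least 42.7-fold lower in motor neuron cultures than in ES cells (-5.98, adjusted p 2.21e-05), with -6.74 without ES cell replicate 1. Against ES cells, Fst differed by -3.39 in Cdx2 and FGF cultures and by -4.15 without ES cell replicate 1. Noggin and chordin, which bind BMPs and are encoded by Nog and Chrd, were not tested. Nog averaged 3.15 in Cdx2 and FGF cultures, 2.28 in motor neuron cultures and 2.21 in ES cells, and Chrd averaged 2.24 in Cdx2 and FGF cultures, 2.34 in motor neuron cultures and 2.22 in ES cells. Grem1, another BMP antagonist, was 2.17 on all day 5 arrays and 2.17, 8.64 and 3.02 on the ES cell arrays, with 1 array high.

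Probe sets of the same gene often gave different answers against ES cells. Between motor neuron cultures and ES cells, 12 of the 20 genes with several tested probe sets had unequal calls, and in 1 gene (Bmpr1a) they were opposite. Taken singly, 24 of the 66 probe sets were higher and 18 lower, beside 31.9% and 27.9% of all probe sets. Between Cdx2 and FGF cultures and ES cell arrays, 12 genes had unequal calls, and 33 of the 66 were higher and 16 lower, beside 31.4% and 24.7%. For Smad3 the chosen probe set differed by -0.25 and the others by 6.79 and 4.47. For Acvr2a it was -0.88 and 4.53, for Bmpr2 -0.02 and 4.18, and for Acvr1 -0.83 and 4.06. In ES cells the mean level of Smad3 was 11.03 on the chosen probe set and 2.33 and 3.04 on the others. With all probe sets of a gene averaged in place of the brightest, Acvr1, Acvr2a, Bmpr2 and Smad3 were called higher in motor neuron cultures than in ES cells, at 1.11, 1.82, 1.39 and 3.67. Other calls in motor neuron cultures against ES cells were kept with smaller log2 differences, among them Bmp7 (1.84), Nodal (-5.60), Inhbb (-3.60), Tgfb2 (-1.71), Smad5 (2.60), Fst (-2.97) and Ltbp1 (-1.27), or with larger ones, as for Tgfbr1 (5.01) and Acvr2b (5.64). Between Cdx2 and FGF cultures and motor neuron cultures, averaging gave 1.46 for Fst and -3.90 for Id4, both still called. The spread between probe sets of 1 gene lay on the same arrays as the difference between 3′ and 5′ controls, whose part was not tested.

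**Figure D4:**
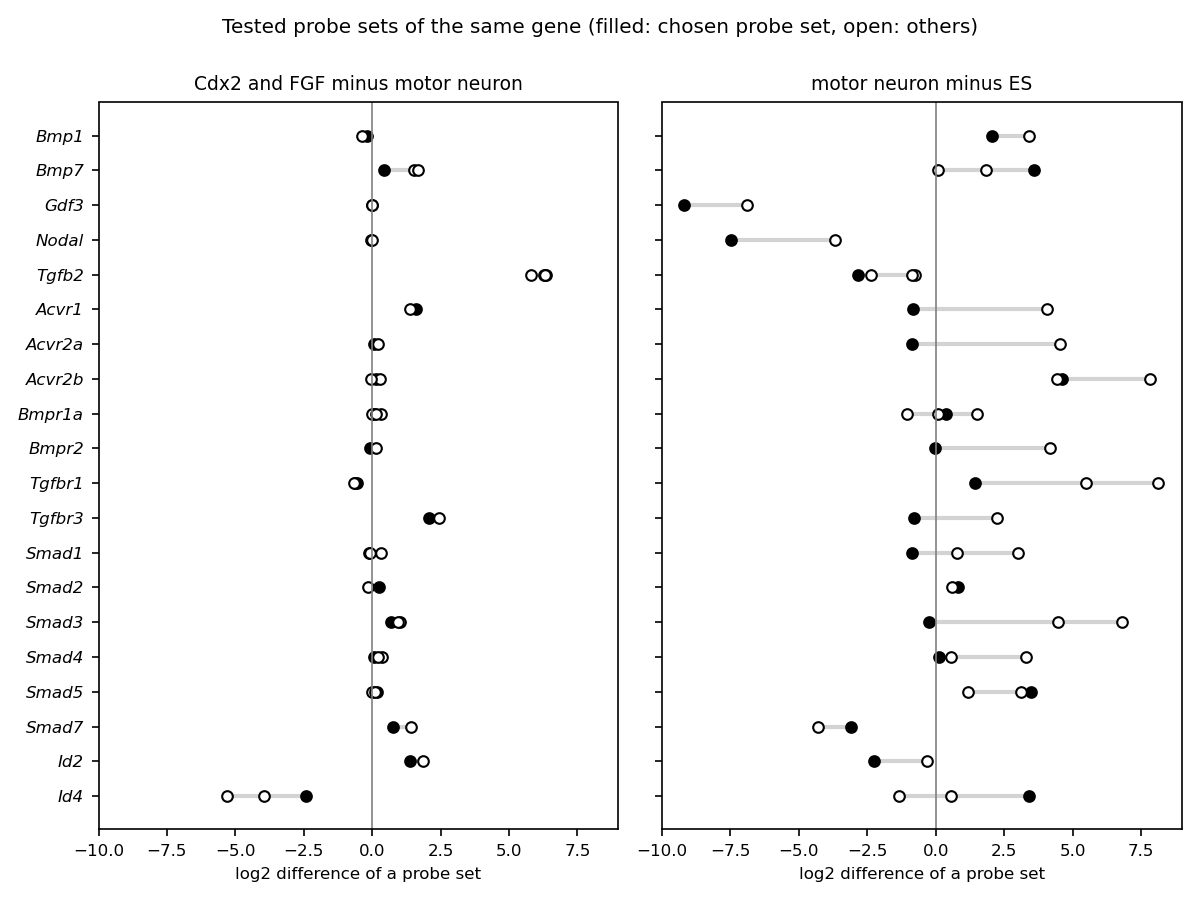
Log2 difference (horizontal axis) of every tested probe set of the 20 genes with several (vertical axis), between Cdx2 and FGF cultures and motor neuron cultures (left) and between motor neuron cultures and ES cells (right), with the chosen probe set filled and the others open. Tgfb2 lies at 5.81 to 6.36 and Id4 at -5.31 to -2.43 between Cdx2 and FGF cultures and motor neuron cultures, and Smad3 at -0.25 to 6.79 in motor neuron cultures.

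A further list of 89 genes of the same pathways, ligands, receptors, antagonists, processing and latency proteins, regulators and targets, had 75 genes with a probe set and 39 tested. Between Cdx2 and FGF cultures and motor neuron cultures, 14 of the 39 were higher (35.9%) and 2 lower (5.13%), beside 11.2% and 8.61% of all genes. Of those called higher, Atoh8 and Tmem100 passed through the Cdx2 and FGF arrays alone and could only be higher. The median difference was 0.31. Of the 7 tested latency and processing genes, 6 were higher in Cdx2 and FGF cultures (85.7%, beside the same 11.2%). Thbs1 and Pcsk5 among them were over 4 on 0 motor neuron arrays and 2 ES cell arrays. They passed only with the Cdx2 and FGF arrays, so they too could only be higher than in motor neuron cultures. Of the 14 other ligands with a probe set, 0 were tested. Tgfbi, a matrix protein induced by TGF-beta, was 10.37, 10.01 and 10.14 in Cdx2 and FGF cultures, 2.17, 2.25 and 2.20 in the motor neuron cultures and 6.61, 8.77 and 5.47 in ES cells. It was at least 72.3-fold higher in Cdx2 and FGF cultures than in motor neuron cultures (adjusted p 2.06e-05). Atoh8, a basic helix-loop-helix factor, was at least 16.9-fold higher there (adjusted p 6.69e-07), at 7.77, 8.17 and 8.28 in Cdx2 and FGF cultures and 2.71, 3.04 and 3.04 in motor neuron cultures. Thbs1, which activates latent TGF-beta, was 8.32, 8.06 and 8.21 in Cdx2 and FGF cultures and 2.17, 2.54 and 2.54 in motor neuron cultures, at least 18.3-fold apart (adjusted p 0.0471, not called in 12 other settings). The 2 genes called lower were Pmepa1, an inhibitor of TGF-beta signalling, which was 7.31-fold lower in Cdx2 and FGF cultures (adjusted p 9.28e-05), and Rgmb, a BMP co-receptor, which was 2.91-fold lower (adjusted p 0.0166). The Rgmb call was lost without Cdx2 and FGF replicate 3 or motor neuron replicate 1 or 2 and with no filter on low values, with adjusted p up to 0.0716, and with probe sets averaged (-0.91). Averaging brought Pmepa1 to -1.35, against -2.87 on its brightest probe set.

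Between motor neuron cultures and ES cells, 9 of the 39 further genes were higher (23.1%) and 18 lower (46.2%), beside 25.9% and 30.7% of all genes, so the share called higher lay near that of all genes. Of those called lower, Foxh1 and Amhr2 passed through the ES cell arrays alone and could only be lower. The median difference was -0.77. Foxh1, the partner of Smad2 in Nodal responses, was 2.17 on all 6 day 5 arrays and 9.59, 10.01 and 9.57 in ES cells, at least 52.8-fold lower in motor neuron cultures (adjusted p 3.78e-09). Ccn2, a matrix-associated target of TGF-beta, was 39.5-fold lower in motor neuron cultures (adjusted p 6.72e-05) and Thbs1 at least 27.1-fold lower (adjusted p 0.0204), with Thbs1 at 2.54, 10.11 and 12.16 on the ES cell arrays, where replicate 1 was as dim as the motor neuron arrays. Ccn2 differed by -5.30, by -4.57 without motor neuron replicate 1 and by -6.00 without ES cell replicate 1. The Thbs1 call was lost without ES cell replicate 2 or 3 or motor neuron replicate 1, with no filter on low values and with only the 6 arrays compared, with adjusted p up to 0.0814. The Thbs1 difference was -5.86 on all arrays, -8.72 without ES cell replicate 1, -4.94 without replicate 2, -3.91 without replicate 3 and -3.57 with probe sets averaged. The 3 named genes that were higher in motor neuron cultures were Rgma, a BMP co-receptor, at least 22.6-fold, Hey1, a helix-loop-helix repressor, 20.4-fold, and Tab1, a partner of the kinase TAK1, at least 19.2-fold. In Cdx2 and FGF cultures against ES cells, 14 of the 39 were higher (35.9%) and 9 lower (23.1%), beside 25.4% and 27.2% of all genes. Of these, Atoh8 and Tmem100 could only be higher, and Foxh1 and Amhr2 only lower. The median difference was 0.12. Fbn2, a microfibril protein, was 43.5-fold higher in Cdx2 and FGF cultures (adjusted p 2.7e-06), and Tab1 and Atoh8 were at least 20.5-fold and 16.9-fold higher. Foxh1 was at least 52.8-fold lower, Amhr2, the receptor of anti-Müllerian hormone, at least 18.8-fold lower and Pmepa1 17.7-fold lower. With probe sets averaged these stayed called, with log2 differences in Cdx2 and FGF cultures of 7.38 for Fbn2, 2.48 for Tab1, -3.68 for Foxh1, -3.44 for Amhr2 and -1.53 for Pmepa1.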

How the data were processed

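RNA of 9 samples went through NuGEN Ovation amplification and labelling, per the labels' protocols, and onto Affymetrix mouse arrays. The authors deposited 1 log2 level for each probe set, from 2.17 to 16.1, and the log2 scale was read from those values. The submitters' processing notes list GCRMA and limma with no version. The genome build is not given in the sources used here. Nothing was normalized again. Probe sets were named through GEO's platform annotation: 34945 named 1 gene, 932 several and 9211 none here, after 64 controls were left out, and 0 symbols had to be updated.

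Each gene was represented by its probe set with the highest mean, and genes over 4 on at least 3 of 9 arrays were tested. A model of the 3 group means over all 9 arrays was fitted in limma 3.58.1 (lmFit, eBayes with trend; R 4.3.3; 6 residual degrees of freedom), and p-values adjusted by Benjamini-Hochberg over 10911 genes. Probe sets were also fitted singly. The steps were tested on simulated data. Standard errors (SE) come from the fit, standard deviations (SD) from the 3 arrays. Groups came from the sample titles.

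The genes and lists were chosen with earlier results of these data known. Named were all 42 genes and, of the further pathway genes, the 3 highest and 3 lowest called genes of each comparison without overlap, ranked with values under 4 raised to 4. Alternatives were other scalings, filters, floors, variance priors, probe set rules, array weights, sample sets and thresholds, the replicate number as a block, and each array left out in turn.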

Additional observations from a re-analysis of the deposited data

How the results depend on the processing

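Each call was recomputed under 14 other settings and with each of the 9 arrays left out in turn, wherever its gene was tested. Smad6 and Tgfbr2 were tested in 22 of these settings, and the other tested genes of the list in 23. In motor neuron cultures against ES cells, 18 of 21 calls were kept wherever tested (not Id1, Id2 and Id4). In Cdx2 and FGF cultures against motor neuron cultures, 9 of 13 were kept (not Acvr1b, Tgfbr3, Fst and Ltbp1). Against ES cells, Cdx2 and FGF cultures kept 18 of 22 (not Acvr1b, Smad2, Id1 and Ltbp1). Some genes without a call gained one of the same sign in at least 1 setting, the setting without a minimum difference included. They were 7 of 13 in motor neuron cultures against ES cells and 5 of 21 in Cdx2 and FGF cultures against motor neuron cultures. In Cdx2 and FGF cultures against ES cells they were 10 of 12. With 1 array left out, the genes called were 7 to 9 higher and 13 to 14 lower in motor neuron cultures against ES cells, 9 to 11 and 1 to 2 in Cdx2 and FGF cultures against motor neuron cultures (1 lower without motor neuron replicate 1), and 10 to 12 and 11 to 13 in Cdx2 and FGF cultures against ES cells. With each probe set taken singly, 15 genes were higher in motor neuron cultures than in ES cells and 21 in Cdx2 and FGF cultures than in ES cells, since a gene then counts by any probe set. No share of all genes stands beside the counts of this section, so they describe the listed genes only. With a gene's probe sets averaged, 17 genes were higher in Cdx2 and FGF cultures than in ES cells and 1 was lower than in motor neuron cultures. That setting turned the sign of Acvr1 (1.11), Acvr2a (1.82), Bmpr2 (1.39) and Smad3 (3.67) in motor neuron cultures against ES cells, and of Acvr2a (1.95), Bmpr2 (1.41), Smad1 (1.02) and Id4 (-3.03) in Cdx2 and FGF cultures against ES cells, each then called; the cause was not tested. It also ended the calls of Id2 (-0.86) and Id4 (0.87) in motor neuron cultures against ES cells, and of Ltbp1 (0.76) in Cdx2 and FGF cultures against motor neuron cultures. A further 45 gene values with no call in either setting crossed 0. Deviations of same-numbered arrays from their group means correlated at -0.03 to 0.08, and those of differently numbered arrays at -0.10 to 0.07. Between Cdx2 and FGF cultures and motor neuron cultures the same-numbered values were 0.06, 0.08 and 0.04. With 3 arrays a group, these correlations do not settle whether the numbers pair the samples. The fit with the replicate number as a block gave 7 higher and 13 lower in motor neuron cultures against ES cells, 11 higher with 2 lower for Cdx2 and FGF cultures against motor neuron cultures, and 11 higher with 11 lower for Cdx2 and FGF cultures against ES cells. The gene it lost was Id1, in motor neuron cultures against ES cells (adjusted p 0.0543). Levels under 4 are not ordered, and differences between dim groups are not resolved.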
